A study of Mus musculus with 8 samples.

Results

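Srsf2, Srsf3, Srsf5, Srsf6 and Srsf10 encode 5 SR proteins, and their splicing is described here in mouse hepatocytes after loss of Srsf3. The 5 genes were selected on their measured changes in these same data, by gene name in either deposited table. They account for 9 of 862 local splicing variations, with 31 of 6866 paths, and for 5 of 498 junction-usage events. Srsf3 has 3 local variations and 1 event, Srsf2 has 2 and 1, Srsf5 has 2 and 2, Srsf10 has 1 and 1, and Srsf6 has 1 local variation and no event. Hepatocytes of C57BL/6J mice homozygous for a floxed Srsf3 allele were cultured and exposed to an adeno-associated virus over 48 h. In 4 libraries the virus expressed Cre recombinase (AAV-Cre, genotype label Srsf3-KO), which removes the floxed part of Srsf3, and in 4 control libraries it expressed green fluorescent protein (AAV-GFP, genotype label Srsf3-flox). Both groups therefore carry the floxed allele and both were infected. The promoter that drives Cre and whether libraries came from separate animals are stated neither in the labels nor in the files used here, and no gene expression table was used here, so hepatocyte markers could not be checked.

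SR proteins bind exons through RNA recognition motifs and recruit the splicing machinery through a domain rich in arginine and serine. Many of their own genes hold a decay exon, often called a poison exon, an alternative exon that brings an early stop codon. Transcripts that include it are substrates of nonsense-mediated decay, which typically acts when a stop codon lies more than about 50 nt before the last exon junction. Through such exons SR proteins are known to limit their own synthesis and that of each other. The measure used below is percent spliced in (PSI), here a fraction from 0 to 1. It is the share of 1 path, a junction or an unspliced intron, among all listed paths that leave, or all that enter, the same exon. The splice site used within that exon may differ between paths. Each group has 1 deposited PSI per path, with no value per library, which leaves library spread and sequencing depth unknown, and no test of these differences was made. PSI is read from the RNA that was present, and no label names an inhibitor of decay, so a path whose RNA is degraded is under-read by an unknown amount.

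The first sequences shown are the stretches that end translation early, since they define what the alternative exons of Srsf3, Srsf5 and Srsf6 do to the reading frame. They were read 5′ to 3′ from GENCODE vM21 transcripts (mm10), from the first base of the exon through the first in-frame stop codon, which is in capitals. The fourth is the end of the coding sequence of Srsf2, where the stop is the normal one.
Srsf3 decay exon, chr17:29039454-29039487, plus strand: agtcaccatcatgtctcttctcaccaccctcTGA
Srsf5 internal exon, chr12:80948129-80948179, plus strand: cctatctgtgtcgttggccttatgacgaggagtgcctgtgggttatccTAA
Srsf6 decay exon, chr2:162932815-162932966, plus strand: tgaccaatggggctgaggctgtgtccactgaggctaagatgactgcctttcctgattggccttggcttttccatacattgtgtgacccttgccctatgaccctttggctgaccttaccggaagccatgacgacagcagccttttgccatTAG
Srsf2 end of exon 2, chr11:116852021-116852050, minus strand: aagagggagcagtttcttccTAAgaaaatg

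Read from the annotated start codon, the reading frame of Srsf3 was 164 codons without and 124 with the 456 nt decay exon, whose stop lay 548 nt before the last exon junction. For Srsf6 the frame was 339 codons without and 135 with the 268 nt decay exon, whose stop lay 534 nt before the last junction. For Srsf5 it was 269 codons without and 138 with the 534 nt internal exon, whose stop lay 668 nt before the last junction. With these exact ends, GENCODE holds the Srsf3 exon and the whole Srsf6 exon only in transcripts labelled as subject to nonsense-mediated decay. A shorter form of the Srsf6 exon, of 165 nt, is also in a transcript labelled protein coding, Srsf6-202, that ends within the next exon and has the same early stop. The Srsf5 exon from 80948129 has no transcript labelled for decay, and is called the internal exon here. Srsf2 differs from these 3 genes: its 104 nt cassette exon lies after the normal stop and leaves the frame at 221 codons, but the distance from that stop to the last junction is 7 nt in Srsf2-201 and 217 nt in Srsf2-202, which holds the cassette. The cassette is in 1 transcript labelled for decay and in 1 with the same junctions labelled protein coding. The competing direct junction is split in the same way, between Srsf2-201 (protein coding) and Srsf2-204 (labelled for decay). Of the sequence after the stop in Srsf2-202, 104 nt are the cassette and 106 nt the exon after it, which ends at a further intron (116850354 to 116850855) that Srsf2-201 does not splice. Cassette against direct junction is therefore not the same as decay against coding transcripts. The acceptors of Srsf10 give 262 or 261 codons and no early stop, and the frames of its other listed paths were not computed.

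**Figure D1:**
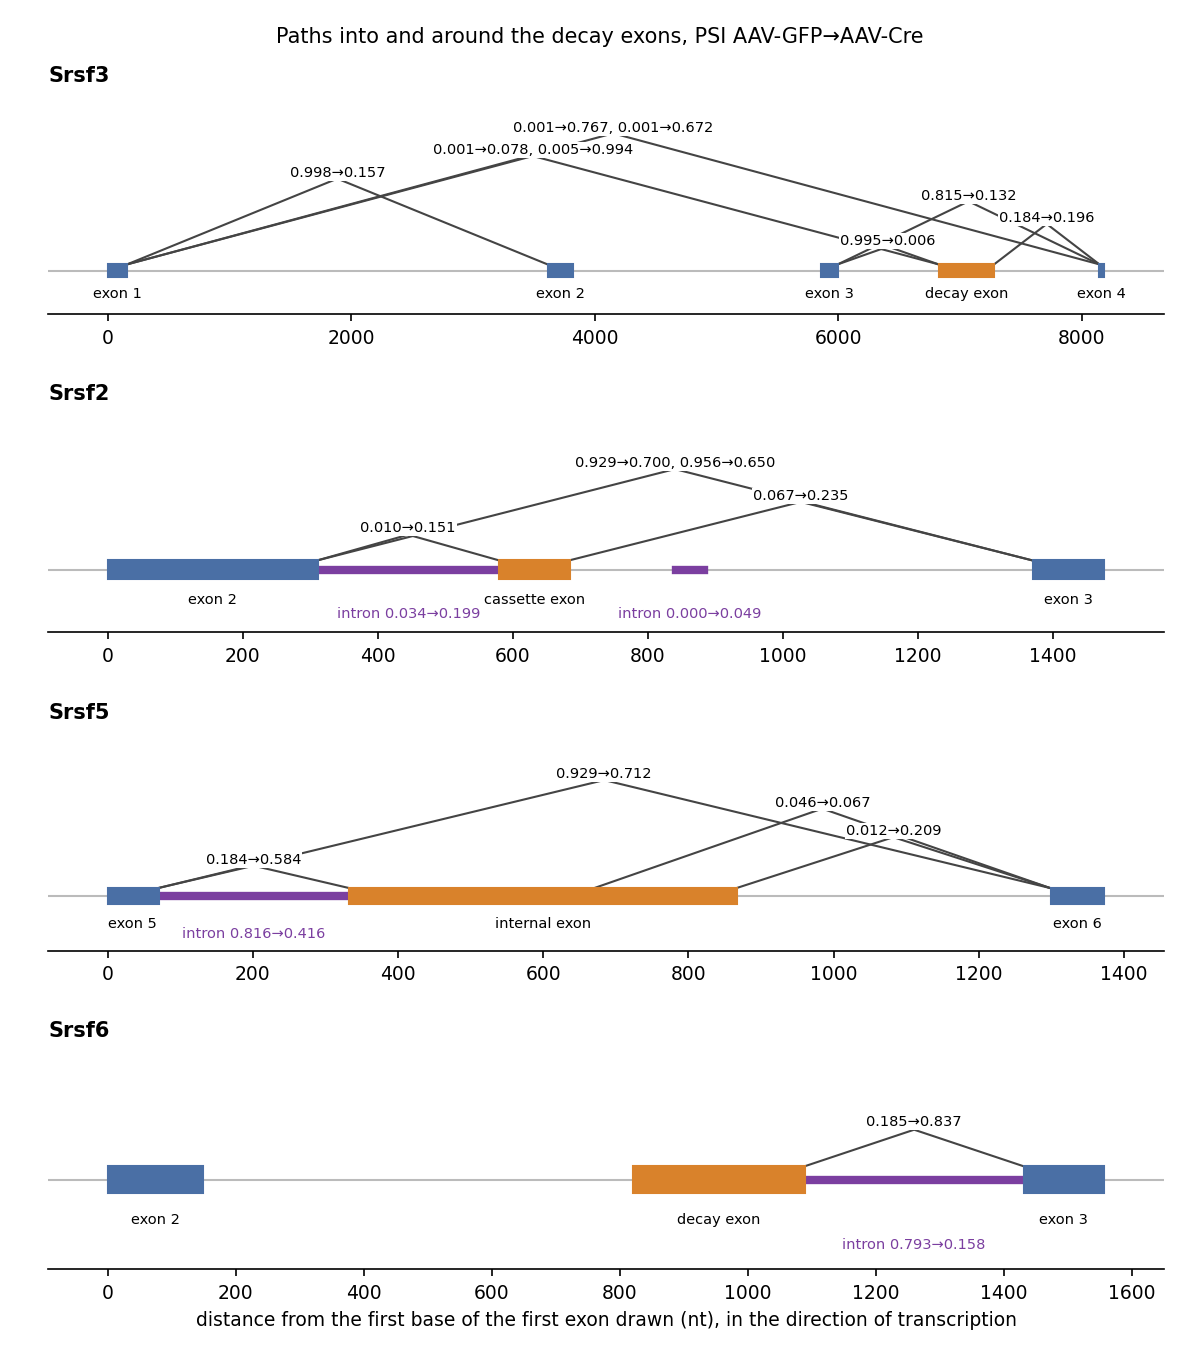
Maps of the listed paths of Srsf3, Srsf2, Srsf5 and Srsf6, in nt from the first exon drawn, with exons of the protein-coding transcript in blue, decay, cassette or internal exons in orange, unspliced introns in purple and PSI given as AAV-GFP→AAV-Cre (2 values where 2 variations hold the same junction; junctions under 0.04 in both groups are left out). The spliced path that uses the orange exon had a larger share in AAV-Cre in Srsf2, Srsf5 and Srsf6. In Srsf6 that share is of the paths that leave the orange exon, not of its inclusion. Entries to the Srsf3 decay exon came from exon 3 at 0.995 with AAV-GFP, and from exon 1 at 0.994 with AAV-Cre. These Srsf3 shares do not measure how often the decay exon was used.

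Srsf3 itself was examined first, since it checks the labels. Its start codon, at chr17:29036243, is in exon 2. The authors' PSI of the junction from exon 1 to exon 2 (29032786 to 29036241) was 0.998 with AAV-GFP and 0.157 with AAV-Cre. In its place exon 1 was joined to exon 4 (29032786 to 29040775), with a PSI of 0.001 with AAV-GFP and 0.767 with AAV-Cre, and to the decay exon (29032786 to 29039454), with 0.001 and 0.078. Neither of these junctions past exons 2 and 3 is in a GENCODE transcript. The 3 joins are shown with the last 15 bases of exon 1 in lower case and the first 15 bases after the junction in capitals.
Srsf3 exon 1 to exon 2: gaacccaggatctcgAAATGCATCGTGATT
Srsf3 exon 1 to exon 4: gaacccaggatctcgATCCCCAAGAAGGAG
Srsf3 exon 1 to decay exon: gaacccaggatctcgAGTCACCATCATGTC
Exon 1 joined to exon 4 leaves out the start codon. The first ATG of that form is at 29041398, out of the annotated frame, and opens a frame of 54 codons.

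Cre removes part of Srsf3 from the DNA, so joins past exons 2 and 3 cannot be told apart here from that deletion. They are not read as a change of splice choice. The share of Srsf3 transcripts that passed over exons 2 and 3 in this sense was 0.843 in AAV-Cre and 0.002 in AAV-GFP, summed over the paths that leave exon 1. Read instead where transcripts enter exon 4, as a product of PSI from 2 variations, it was 0.867 and 0.00192. The paths that enter the decay exon were exchanged almost wholly between the groups. In AAV-GFP 0.995 of them came from exon 3, and in AAV-Cre 0.994 came from exon 1. A gene copy that lacks exon 3 has no path from it, so this exchange has the same limit. The path from the decay exon to exon 4 (29039909 to 29040775) had a similar share of the entries to exon 4 in both groups, 0.184 with AAV-GFP and 0.196 with AAV-Cre, but it belonged to different transcripts.

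The use of the decay exon on transcripts that still carried exon 3 was obtained by multiplying the PSI of the 2 variations. In AAV-GFP 0.183 of the transcripts that left exon 3 went through the decay exon (0.183 to 0.184 from the rounding of the deposited PSI). In AAV-Cre the value was 0.00883 (0.00805 to 0.00962 from rounding). These intervals cover rounding only, and the product assumes that the variations sample the same transcripts. On transcripts that passed over exons 2 and 3, the share through the decay exon in AAV-Cre was 0.225 where they entered exon 4 and 0.0923 where they left exon 1, so the 2 readings of the same path differed. In AAV-GFP this share cannot be read, since the PSI involved are 0.001. The donor of exon 3 and that of the decay exon, which compete for the acceptor of exon 4, are shown with 9 exon bases in lower case and the first 6 intron bases in capitals.
Srsf3 exon 3 donor, chr17:29038616-29038630: tcggcgcagGTACTT
Srsf3 decay exon donor, chr17:29039901-29039915: ccaaaactaGTAAGT

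Srsf6, which encodes an SR protein of the same broad family with 2 RNA recognition motifs in tandem, had the largest expected change of the other 4 genes, 0.663, 24th of 354 genes with local variations. Its listed variation describes how transcripts leave the decay exon, and does not measure how often that exon is included. In AAV-GFP the PSI of the junction from the whole decay exon to exon 3 (chr2:162933082 to 162933426) was 0.185, and in AAV-Cre it was 0.837. The 343 nt intron that follows the exon (162933083 to 162933425) went the other way, from 0.793 unspliced in AAV-GFP to 0.158 in AAV-Cre. The junction from the shorter form (162932979 to 162933426) had 0.023 and 0.005. Transcripts with exon 2 spliced to the decay exon and the intron after it unspliced also meet the early stop, which then lies 877 nt before the last junction. No path into the decay exon is listed for Srsf6. The unspliced share may thus also hold RNA in which the whole stretch between exons 2 and 3 is unspliced. Both donors are shown with 9 exon bases in lower case and 6 intron bases in capitals.
Srsf6 decay exon, shorter form, donor, chr2:162932971-162932985: agggtgatgGTGAGG
Srsf6 decay exon, whole, donor, chr2:162933074-162933088: cactgtgatGTAAGT
Of the spliced paths alone, the donor of the whole exon took 0.889 with AAV-GFP and 0.994 with AAV-Cre. The exchange between the groups was thus mostly between the unspliced intron and 1 spliced path.

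Srsf5 encodes another SR protein with a pair of RNA recognition motifs, and it showed the same kind of exchange on the other side of its internal exon. Its largest expected change was 0.407, 94th of 354 genes. Among the paths that enter the internal exon, the junction from exon 5 (chr12:80947865 to 80948129) had an authors' PSI of 0.184 with AAV-GFP and 0.584 with AAV-Cre. The unspliced 263 nt between them (80947866 to 80948128) had 0.816 with AAV-GFP and 0.416 with AAV-Cre. With this intron unspliced the frame ends after 124 codons. The stop is then 973 nt before the last junction if the internal exon ends at its last donor (80948662), and nearer to it with an earlier donor.

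The second variation of Srsf5 shows how much of the RNA entering exon 6 came through the internal exon. The direct junction from exon 5 to exon 6 (80947865 to 80949095) had 0.929 under AAV-GFP against 0.712 under AAV-Cre. The 5 donors of the internal exon summed to 0.069 with AAV-GFP and 0.29 with AAV-Cre. None of these 5 junctions is in a GENCODE transcript. They differed in size and direction. The last donor, at 80948662, went from 0.012 to 0.209, the donor at 80948466 from 0.046 to 0.067, and the donor at 80948392 from 0 to 0.01. The donors at 80948165 and 80948555 had 0.002 and 0.009 in AAV-GFP, and 0 and 0.004 in AAV-Cre. The last donor therefore made up 0.174 of the internal exon's exits with AAV-GFP and 0.721 with AAV-Cre, while the donor at 80948466 made up 0.667 and 0.231. The 2 leading donors and that of exon 5 are shown as above.
Srsf5 exon 5 donor, chr12:80947857-80947871: agctggcagGTTTGT
Srsf5 internal exon, shorter form, donor, chr12:80948458-80948472: tggtccttgGTAACT
Srsf5 internal exon, whole, donor, chr12:80948654-80948668: ttaataaagGTAAAG
The early stop at 80948177 lies before both of the leading donors, so both forms have 138 codons, and with the shorter form the stop is 472 nt before the last junction.

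Srsf2 encodes an SR protein with a single RNA recognition motif, also known as SC35. Its 2 variations read the cassette exon from either side. Where exon 2 is left, the junction to the cassette (chr11:116851751 to 116852021) had a PSI of 0.01 with AAV-GFP and 0.151 with AAV-Cre, and the direct junction to exon 3 (116850961 to 116852021) had 0.956 and 0.65. The 269 nt intron between exon 2 and the cassette (116851752 to 116852020) was unspliced at 0.034 with AAV-GFP and 0.199 with AAV-Cre. Unlike the introns beside the alternative exons of Srsf5 and Srsf6, it was higher in AAV-Cre.

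Where exon 3 of Srsf2 is entered, the junction from the cassette (116850961 to 116851648) had 0.067 with AAV-GFP and 0.235 with AAV-Cre, and the direct junction 0.929 and 0.7. A minor exon at 116851491 to 116851571 gave 0.003 and 0.011, an unspliced stretch of 43 nt gave 0 and 0.049, and a last junction gave 0 and 0.003. Of cassette and direct junction alone, the cassette took 0.0673 with AAV-GFP and 0.251 with AAV-Cre on this side, and 0.0104 and 0.189 where exon 2 is left. Both sides showed more cassette in AAV-Cre, with different levels.

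Srsf10, which encodes an SR protein known for acting as a repressor of splicing when dephosphorylated, had the smallest change, 0.209, 337th of 354 genes. Its exon 5 has acceptors 3 bases apart. The window shows the end of the intron, the 3 bases between the acceptors in capitals, and the exon after them.
Srsf10 acceptors, chr4:135863508-135863537, plus strand: tggtatgctttttagCAGtagaccgactgg
The upstream acceptor, at 135863523, had a PSI of 0.883 with AAV-GFP and 0.663 with AAV-Cre, and the downstream acceptor, at 135863526, had 0.106 and 0.259. Of these 2 alone the downstream acceptor took 0.107 and 0.281. The frames differ by 1 codon with either last exon of Srsf10, at 262 and 261 codons with the proximal and 183 and 182 with the distal one. The first 92 nt of the intron before exon 5 were unspliced at 0.006 with AAV-GFP and 0.074 with AAV-Cre. The junction straight to the distal last exon (135867126) had 0.006 and 0.001.

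**Figure D2:**
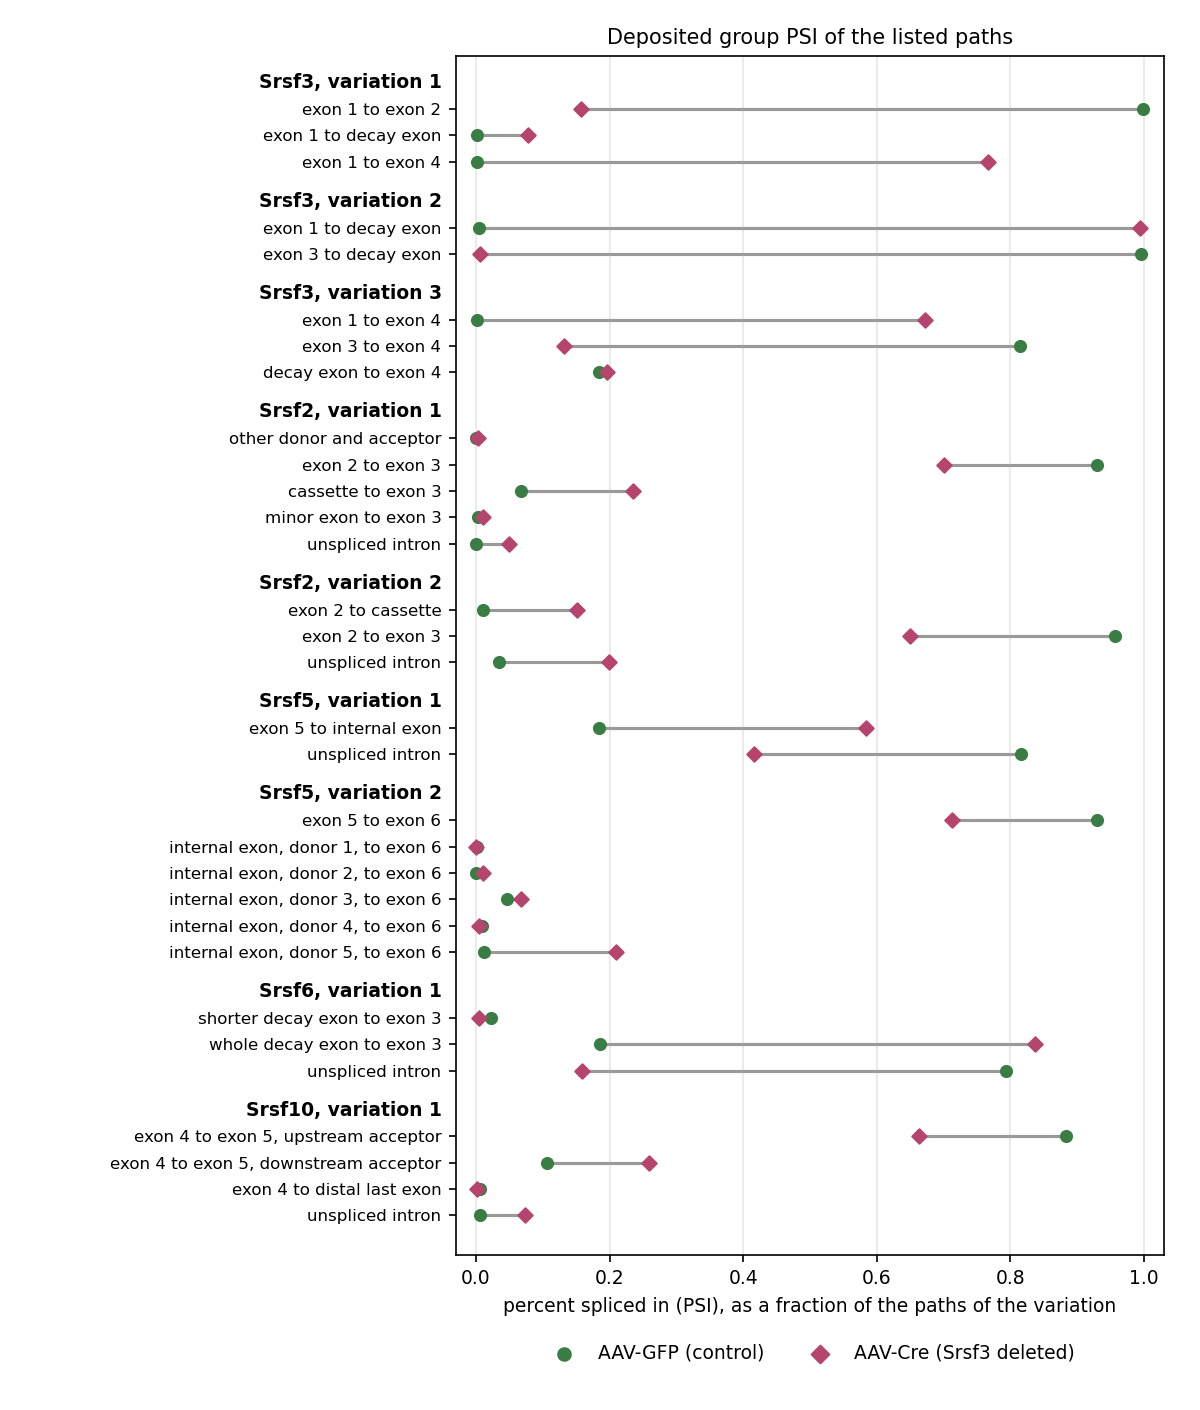
Authors' PSI of all 31 listed paths of the 5 genes, with AAV-GFP as circles and AAV-Cre as diamonds, by gene and variation. In Srsf2, Srsf10 and variation 2 of Srsf5, the direct or main path lay between 0.883 and 0.956 with AAV-GFP and between 0.65 and 0.712 with AAV-Cre. In variation 1 of Srsf5 the main path with AAV-GFP was the unspliced intron, at 0.816 against 0.416 with AAV-Cre.

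All 9 variations of the 5 genes had a path with an expected change of at least 0.2, but 821 of the 862 listed variations (95.2%) did too, so the table lists mainly changed variations and nothing is read from that count. The median largest change per gene was 0.31 over the 354 listed genes, and that of the 5 genes was 0.407, or 0.363 without Srsf3. Srsf2, at 0.319 and rank 167, was near that median, and Srsf10 was far below it. Of the 5 introns of the group, 2 were lower in AAV-Cre by at least 0.2, in Srsf6 and Srsf5, where 31 of the 197 listed introns (15.7%) were. None of the 5 was higher by at least 0.2 in expected change, where 80 of 197 (40.6%) were. The 2 Srsf2 introns and the Srsf10 intron were higher by less. GENCODE gives 3 junctions of the group to a decay transcript and to no protein-coding one, though retained-intron or processed transcripts also hold both of those in Srsf3. Of these 3, that of the whole Srsf6 exon was higher by at least 0.1 and that from exon 3 of Srsf3 into the decay exon was lower, against 11 (24.4%) higher and 9 lower of 45 such junctions in the table. The genes were chosen on these values, so the shares are a description. The Srsf6 and Srsf3 junctions named here have PSI among paths that leave or enter the decay exon, which do not measure its inclusion. That of Srsf3 lies in the deleted gene, so its fall cannot be told apart from the deletion.

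**Figure D3:**
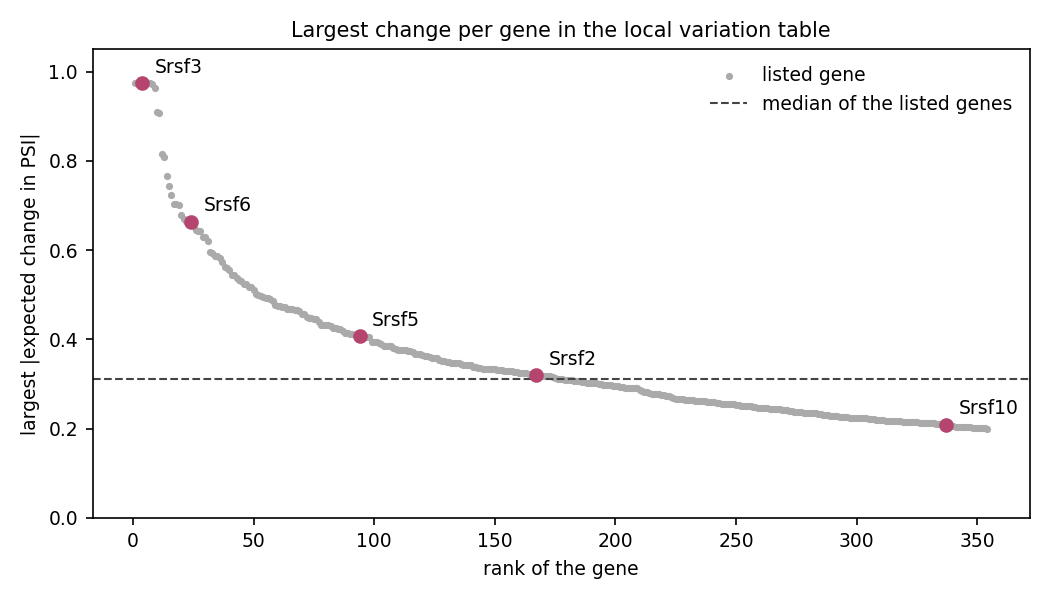
Largest absolute expected change in PSI of each of the 354 genes with local variations, in order of size, with the 5 SR protein genes marked and the median of 0.31 as a dashed line. Srsf3, the deleted gene, and Srsf6 stand among the largest changes, Srsf2 near the median and Srsf10 near the lower end.

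The junction-usage table was made by the authors from the same libraries with another tool, so it is a second reading and not a second experiment. It lists events at p below 0.05. As the libraries' origin in separate animals is not stated, the authors' p-values and q-values measure only the spread between these libraries, which may be technical. Of the 5 events of these genes, 2 in the authors' deposited table reached a q-value of at most 0.05 with a change no smaller than 0.1, where 57 of 498 listed events (11.4%) did. These were the composite events of Srsf3 (q = 2.38e-05) and Srsf2 (q = 8.57e-05). Cre removes part of Srsf3 itself, so the Srsf3 event cannot be told apart from the deletion. Among the events of the other genes, only that of Srsf2 passed. The Srsf10 acceptors (q = 0.211) and both Srsf5 events (q = 0.272 and q = 0.524) missed that q-value in the authors' deposited table.

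For Srsf2 the authors' deposited table gave a change of 0.131 for the junction from exon 2 to the cassette and of -0.131 for the direct junction. At exon 3 it gave 0.0953 for the cassette, 0.0532 for the minor exon and -0.149 for the direct junction. For Srsf3 the authors' deposited table gave -0.889 for exon 1 to exon 2, 0.821 for exon 1 to exon 4 and 0.0682 for exon 1 to the decay exon. It also compared the 2 paths that leave exon 3, where the value was -0.287 for the decay exon and 0.287 for exon 4. The product of PSI above gave a change of -0.175, in the same direction but smaller. A fall of 0.287 is larger than the whole AAV-GFP share of 0.183 from that product. The level of decay exon use in AAV-GFP is therefore uncertain. The tables differed in sign at 1 junction of Srsf3, the decay exon to exon 4, at -0.291 by junction usage and 0.012 by local variation. They differed in size at others. The direct junction leaving exon 2 of Srsf2 had -0.131 by junction usage and -0.306 by local variation. There the local variation also counts the unspliced intron, while junction usage compares 2 junctions only.

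For Srsf5 the authors' deposited table gave -0.199 for exon 5 to exon 6 and 0.15 and 0.0486 for the donors at 80948662 and 80948466, without passing q. Its other Srsf5 event concerned donors of the first exon, before the start codon. Its values, also short of that q-value, were -0.226 for the donor at 80945798 and 0.114 and 0.112 for those at 80945668 and 80945672. For Srsf10 the authors' deposited table gave 0.138 for the downstream acceptor and -0.138 for the upstream one. Of 13 junctions of these genes with a change of at least 0.1 in both tables, 13 had the same sign.

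**Figure D4:**
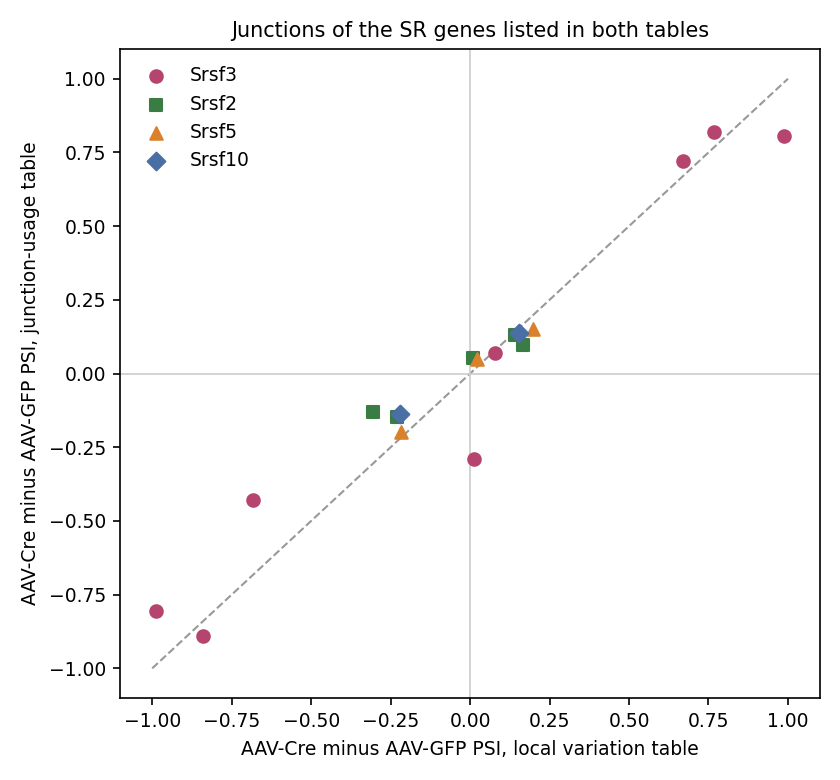
Change in PSI, AAV-Cre minus AAV-GFP, of the 18 junction readings of Srsf2, Srsf3, Srsf5 and Srsf10 that could be paired between the local variation table (x axis) and the junction-usage table (y axis), with equality as a dashed line. Apart from 1 Srsf3 junction at 0.012 and -0.291, readings had the same sign in both.

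Other SR proteins and related factors were read from a list of 33 genes. Of these, 7 had a local variation changed by at least 0.2 and 1 had a called junction-usage event, so 8 of 33 had a change in either table. All 354 genes of the local variation table (100%) reach 0.2, so the 7 are simply those listed there. By junction usage 8 of the 33 were listed and 1 was called, where 48 of 414 named genes (11.6%) were called. None of the classical SR proteins on the list (Srsf1, Srsf4, Srsf7 and Srsf9) was among the 8. Srsf7 was listed by junction usage in the authors' deposited table with q = 0.0903 and a change of 0.0295, and Tra2a, an SR-like splicing regulator, with q = 0.594 and a change of 0.383. Of the 8, Rsrp1, an arginine and serine rich protein, had the largest change, with its leading junction at 0.887 with AAV-GFP and 0.367 with AAV-Cre. Thrap3 went from 0.339 to 0.717, Rbm39, a splicing factor related to U2AF, from 0.84 to 0.524, and Acin1 from 0.1 to 0.397. Bclaf1 went from 0.993 to 0.716, Luc7l2, a U1-associated factor, from 0.29 to 0.567, and an intron of Nktr from 0.024 to 0.262. Rsrp1, Rbm39, Acin1 and Luc7l2 were also listed by junction usage in the authors' deposited table, without passing q of 0.05. Their lowest q-values there were 0.0517, 0.31, 0.526 and 0.576. U2af2, which encodes the large subunit of U2AF that binds the polypyrimidine tract, had q = 0.000312 and a change of 0.137 by junction usage in the authors' deposited table.

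Of 15 kinases, phosphatases and the importin that act on SR proteins, none had a called change. Clk4 and Cdk11b were listed by junction usage in the authors' deposited table, with changes of 0.338 and 0.585 that did not pass (q = 0.13 and q = 0.288). None of 15 genes of the nonsense-mediated decay machinery was listed by name in either table, but 48 of the 498 junction-usage events carry no gene name and could not be searched. A gene that is not listed may have changed by less or have had too few reads, which these tables cannot separate.

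Genes outside the group were ranked by the size of the expected change between the 2 groups for changes like those of single members. These were the introns of Srsf6 and Srsf5 and the junction of the whole Srsf6 exon, and neither kind was common to all 5 genes. For a retained intron lower in AAV-Cre, 4 of the 5 leading genes were the neighbouring predicted genes Gm10722, Gm10717, Gm10718 and Gm26870 on chromosome 9, whose reads may be shared and whose values are uncertain. The other was Cdv3, at 0.638 with AAV-GFP and 0.001 with AAV-Cre. For a junction higher in AAV-Cre that is in a decay transcript and in no protein-coding one (retained-intron and processed transcripts were allowed), the leading genes were Hnrnpu (0.035 to 0.656), Sat1 (0.495 to 0.993), Syce2 (0.013 to 0.465), Ccnl1 (0.409 to 0.83) and Ggct (0.071 to 0.431). Hnrnpu encodes an abundant nuclear RNA-binding protein, and Ccnl1 encodes cyclin L1, a partner of CDK11 kinases.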

How the data were processed

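Paired-end stranded mRNA libraries were made, per the labels' protocols, and FastQC, STAR and mm10 are named in the submitters' processing notes, without roles or versions. The first deposited table is laid out like VOILA output from MAJIQ, and gives the authors' PSI per group and expected change, per the file headers. Its change ran as AAV-GFP minus AAV-Cre (correlation of the turned value with the PSI difference 0.996) and was turned. Its probability column did not behave as headed and was not used. The second deposited table gives the authors' JUM events with their p-values, changes in PSI and q-values. Its downstream coordinates were moved by 2 nt to the first exon base. The order of values in composite events is not stated. It was taken from sums of 0 at each splice site, and signs matched the first table at 9 of 9 junction readings in 4 events of other genes.

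Junctions were matched to GENCODE vM21, and isoforms, frames and sequences came from its transcripts; introns are covered by retained-intron transcripts. Genes, lists and thresholds (0.2 for local variations, q of 0.05 and 0.1 for events) were chosen with earlier results of these data known. Named genes were the 5 genes, listed genes with a called change, and 5 genes per like pattern. The reader of the first deposited table was tested on simulated data, and that of the second was not. Alternatives changed thresholds, the side an exon was read from and the definition of decay exons. Python 3.11.15, numpy 2.4.6 and pandas 2.3.3 were used.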

Additional observations from a re-analysis of the deposited data

How the results depend on the processing

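With a change of at least 0.5 in place of 0.2, 4 of the 9 variations were counted. The other 5 alternatives for that count gave 6 to 9. By junction usage, 5 events had a change of at least 0.1 at p below 0.05 as listed, and 1 passed with a change of at least 0.2 at q of 0.05 or less. The change in the Srsf2 cassette, 0.168 where exon 3 is entered, was 0.141 on the other side and 0.184 against the direct junction alone. For the Srsf3 decay exon, 0.077 where exon 1 is left became 0.012 on its other side and 0.331 against exon 2 alone. Among transcripts that leave exon 3 the change was -0.175, as a product of 2 variations. By junction usage in the authors' deposited table it was -0.287 there, and -0.291 for the decay exon to exon 4. Both the sign and the size of this change thus depend on the reading. The last donor of the Srsf5 internal exon, 0.197, gave 0.214 against the direct junction alone. Taken from transcript labels, decay exons were found in 2 genes (Srsf3 and Srsf6), and as exons outside protein-coding transcripts in 3 (Srsf2 through its minor exon, Srsf3 and Srsf5). Introns lower in AAV-Cre by at least 0.2 numbered 2, but 1 in variations of 2 paths only and 0 in the junction-usage table, whose intron events include none of these genes. Of the other SR proteins and regulators, 13 genes were listed at any size and 4 changed by at least 0.3, against 8. No paired analysis was possible because the deposited tables hold no value per library, and for the same reason no library could be left out and depth is unknown.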
